A study of Ovis aries and Bos taurus with 6 samples.

Results

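The let-7 and miR-98 family was examined in small RNA libraries of extracellular vesicles (EVs), the membrane particles that cells shed, isolated from milk. Of 6 libraries, 3 were made from milk of the Ordos fine wool breed of sheep and 3 from milk of Holstein cattle, and the labels give every animal as a female in mid lactation and name no treatment. Rows of the deposited count tables belonged to the family where their miRBase name, without the species prefix and a -5p suffix, was let-7a to let-7g, let-7i or miR-98. Sheep rows without a miRBase name were added where bases 2 to 8 of the listed sequence equalled those of sheep let-7b. This gave 12 of 685 sheep rows and 9 of 779 cow rows, which cover 9 members in each species. The cow libraries come from an earlier study of the same group, per the series' design text, so effects of species, of breed and of study cannot be told apart here. Nothing in the labels says more of the animals than sex, breed and stage, and the spread between libraries may hold technical as well as biological variation.

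let-7 was found in the worm Caenorhabditis elegans as a regulator of developmental timing, and the family is conserved across animals. In mammals its members pair with targets through the same seed, the bases at positions 2 to 8, and are known to hold down RNAs of growth and stem cell genes such as HMGA2, LIN28 and RAS genes. LIN28 in turn blocks the maturation of let-7 precursors. Family members are abundant in most differentiated tissues, and are found in milk of several mammals.

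The sequences that the sheep table lists for the 9 members are shown because members differ by so few bases that the counts of one may hold reads of another. Capitals mark the seed, letters are DNA letters as deposited, and the more abundant row is shown for let-7e and miR-98.
let-7a: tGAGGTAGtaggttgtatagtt
let-7b: tGAGGTAGtaggttgtgtggt
let-7c: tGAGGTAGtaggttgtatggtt
let-7d: aGAGGTAGtaggttgcatag
let-7e: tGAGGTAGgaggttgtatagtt
let-7f: tGAGGTAGtagattgtatagt
let-7g: tGAGGTAGtagtttgtacagt
let-7i: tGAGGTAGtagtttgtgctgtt
miR-98: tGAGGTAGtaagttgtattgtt

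All 9 share the seed GAGGTAG, and outside it they differ at few positions. Substitutions are written with the let-7a base first, then the position counted from 1 at the 5′ end, then the member's base. let-7c (A19G), let-7e (T9G) and let-7f (G12A) each differ from let-7a by 1 base. let-7b (A17G and A19G) shares A19G with let-7c. let-7g (G12T and T18C) shares both of its changes with let-7i (G12T, A17G, T18C and A19T). miR-98 has G11A and A19T, and let-7d has T1A and T16C. Of the 36 pairs of members, 4 differ by 1 base and 10 by 2 bases over the length both list. The listed length ran from 20 bases for let-7d, over 21 for let-7b, let-7f and let-7g, to 22 for the others. The cow table lists no sequences.

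The files do not name the sheep rows of let-7e and miR-98. The 2 let-7e rows were assigned by the rule for the members and differ only in the last base. The longer miR-98 row lists 22 bases that are known as mature miR-98 in other mammals, and the shorter one is its first 18 bases. The remaining row with the seed, counted in the family total but given to no member, had 3, 4 and 7 counts in the sheep libraries.

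Total miRNA counts were 1073914 to 2078695 in the sheep libraries and 328527 to 556489 in the cow libraries. A count of 0 would allow at most 2.79 CPM (counts scaled to a common library total) in sheep and 9.13 CPM in cow, from a floor of 3 counts, and no member was at 0 in any library. In cow, 15.8% to 29.0% of a library's counts fell in rows with a miRBase name, and a single unnamed row held 51.2% to 68.9%. Cow reads of the family may lie in unnamed rows, which could not be searched for the seed because no cow sequences are listed. miR-148a, abundant in lactating mammary epithelium, took 19.6%, 63.6% and 38.0% of sheep replicates 1, 2 and 3, against 0.183%, 0.219% and 0.104% of the cow libraries. The epithelial miR-200c was at 0.104% to 0.316% in sheep and at most 0.00438% in cow. Sheep replicate 1 held the most miR-150 of the sheep libraries, a miRNA of lymphocytes, with 0.0637% against 0.00308% and 0.00363% in the others. The cow libraries held 0.281% to 0.570%. Whether these differences bear on the family was not tested. Fewer vesicles of a kind and less of a miRNA per vesicle cannot be told apart in such bulk libraries.

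As a whole the family took a larger part of the sheep libraries. It made up 13.6%, 9.68% and 16.96% of all miRNA counts in sheep replicates 1, 2 and 3, against 2.22%, 3.20% and 1.86% in cow replicates 1, 2 and 3. The means were 13.4% ± 3.64 in sheep and 2.43% ± 0.694 in cow (SD, n = 3 each). The species did not overlap, and the exact two-sided permutation p was 0.1, the smallest that 3 libraries against 3 allow. Among the 54 miRNAs that could be joined between the tables, where the large unnamed cow row leaves the denominator, the family took 32.8%, 12.5% and 26.9% in sheep and 17.3%, 16.8% and 21.9% in cow. These ranges overlapped (exact permutation p = 0.4), with means of 24.1% ± 10.5 and 18.7% ± 2.79. Without sheep replicate 1 the sheep mean was 19.7%, and without sheep replicate 2, which holds the most miR-148a, it was 29.9%. With the largest row of each library also taken out of the joined counts, the family took 62.4%, 68.4% and 67.8% in sheep and 24.6%, 24.3% and 30.4% in cow, without overlap. The row taken out was miR-148a in each sheep library and miR-26a in each cow library, so these denominators are not alike between the species. With the largest row taken out of all miRNA counts, the means were 23.6% in sheep and 5.98% in cow, also without overlap (exact permutation p = 0.1 for both). The size of the difference therefore depended on the denominator, and its mean was higher in sheep with each of these.

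The make-up of the family, as each member's share of the family's own counts, needs no scaling between libraries. The shares of a library sum to the whole family, however, so a large let-7f share lowers the shares of all other members. In sheep let-7b, let-7a, let-7c and let-7i together made up 92.4%, 90.9% and 92.2% of the family in replicates 1, 2 and 3. In cow the same 4 members made up 59.4%, 42.4% and 59.7%, and let-7f took most of the rest. Of the 9 members, 6 had shares that did not overlap between the species, 3 higher in sheep (let-7b, let-7c and let-7i) and 3 lower (let-7d, let-7f and let-7g). Each of these 6 had an exact permutation p of 0.1, or 0.15 with Benjamini-Hochberg adjustment over the 9 members, so the design cannot bring them past 0.05. As a background, the species were apart in the share of the joined counts for 53.7% of the 54 joined miRNAs, with sheep higher for 14.8% and lower for 38.9%. By that measure 4 of the 9 members did not overlap, 2 higher and 2 lower. The 95% Wilson interval of a within-family share reached at most 1.06 percentage points to either side. That was small beside the mean differences of these 6 members, except for let-7g (-1.92 points, sheep minus cow). It was not small beside the gap between the closest libraries for let-7g, at 2.25% in sheep and 2.62% in cow. The same held for let-7b, at 27.4% in sheep and 25.9% in cow. These intervals and the floor hold for counting error alone, because PCR makes several reads of 1 molecule.

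**Figure D1:**
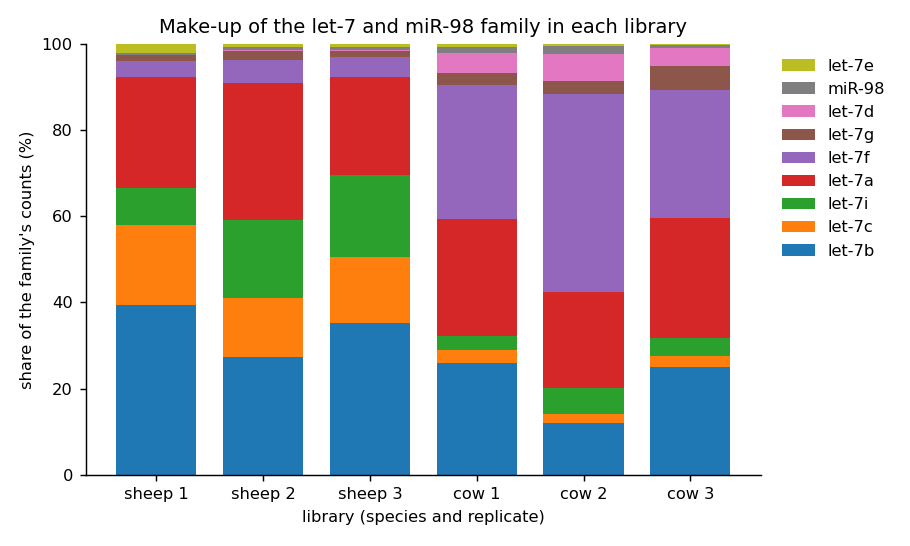
Stacked bars give the share of the family's counts (%) held by each of 9 members in each library, with the 3 sheep libraries on the left and the 3 cow libraries on the right. let-7b, let-7c and let-7i fill more of the sheep bars, while let-7f and let-7d fill more of the cow bars; let-7a takes 22.2% to 31.8% of every bar.

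let-7c had the highest ratio of sheep to cow shares. In human and mouse a let-7c gene lies beside miR-99a. let-7c took 18.5%, 13.6% and 15.4% of the family in sheep replicates 1, 2 and 3, against 2.99%, 2.09% and 2.42% in cow replicates 1, 2 and 3. Every sheep value lay above every cow value, and the mean was 6.33 times that of cow. let-7i, which comes from a gene of its own, took 8.70%, 18.1% and 19.1% in sheep and 3.35%, 6.01% and 4.33% in cow. Sheep replicate 1 was the lowest of the sheep libraries for let-7i, yet still above the cow libraries. let-7b, the largest member in sheep on average, took 39.5%, 27.4% and 35.2% in sheep and 25.9%, 12.1% and 25.1% in cow. Here the lowest sheep library and the highest cow library were close, at 27.4% and 25.9%. As counts per let-7a count, let-7b stood at 1.53, 0.864 and 1.56 in sheep and at 0.953, 0.547 and 0.898 in cow, with overlap.

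The opposite held for let-7f, which in human and mouse is made from clusters with let-7a and let-7d and, on the X chromosome, with miR-98. let-7f took 3.61%, 5.30% and 4.69% of the family in sheep replicates 1, 2 and 3, against 31.2%, 46.1% and 29.7% in cow replicates 1, 2 and 3. It was the largest member in each cow library and the fifth largest in each sheep library. let-7d, which carries T1A, took 0.0491%, 0.202% and 0.101% in sheep and 4.78%, 6.31% and 4.22% in cow. These were the lowest values of any of the 9 members in sheep, on 74, 406 and 184 counts. let-7g, found in an intron of WDR82 in human and mouse, took 1.44%, 2.25% and 1.55% in sheep and 2.62%, 2.89% and 5.48% in cow. The gap was narrow, and cow replicate 3 stood above the other cow libraries: the cow mean was 3.66%, and 2.76% without it.

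The other 3 members overlapped between the species. let-7a, whose mature sequence is that of the worm let-7, took 25.8%, 31.8% and 22.6% in sheep and 27.1%, 22.2% and 27.9% in cow (exact permutation p = 0.9). The mean difference of 0.959 percentage points changed sign without sheep replicate 2 (-1.57) or without cow replicate 2 (-0.825). let-7e, made together with miR-99b and miR-125a in human and mouse, took 2.17%, 0.743% and 0.669% in sheep and 0.741%, 0.499% and 0.332% in cow (p = 0.2, exact permutation test). Sheep replicate 1 stood above the rest, and without it the sheep mean was 0.706% in place of 1.20%. miR-98 took 0.281%, 0.603% and 0.754% in sheep and 1.32%, 1.81% and 0.567% in cow (p = 0.3, exact permutation test).

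Libraries of one species were closer to each other in make-up than to libraries of the other. The part of the family's counts that would have to be moved between members to make 2 libraries alike was 31.6% to 51.7% over the 9 pairs of a sheep and a cow library. It was 10.7% to 18.4% within sheep and 4.60% to 21.6% within cow. Cow replicate 2, with the most let-7f and the least let-7b, was the cow library farthest from its species, at 19.9% and 21.6% from the other 2. The inverse Simpson index, which counts how many equally abundant members would give the same concentration, was 4.10 ± 0.304 in sheep and 3.95 ± 0.394 in cow (SD, n = 3 each; exact permutation p = 0.6), and the libraries overlapped.

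Ratios between 2 members of a library differed between the species for several pairs that are few bases apart. let-7c, 1 base from let-7a, had 0.716, 0.429 and 0.681 counts per let-7a count in sheep, against 0.110, 0.0941 and 0.0868 in cow. let-7f, also 1 base from let-7a, had 0.140, 0.167 and 0.208 counts per let-7a count in sheep, against 1.15, 2.08 and 1.06 in cow. The pair of let-7b and let-7c, again 1 base apart, stood at 2.14, 2.01 and 2.29 let-7b counts per let-7c count in sheep and at 8.65, 5.81 and 10.3 in cow. These 3 ratios did not overlap between the species. let-7e, also 1 base from let-7a, had 0.0843, 0.0234 and 0.0296 counts per let-7a count in sheep and 0.0273, 0.0225 and 0.0119 in cow, with overlap. let-7i and let-7g, which share G12T and T18C, stood at 6.05, 8.04 and 12.3 let-7i counts per let-7g count in sheep and at 1.28, 2.08 and 0.790 in cow. Reads of members this alike may have been split between rows by the counting, and no source used here names the counting tool.

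**Figure D2:**
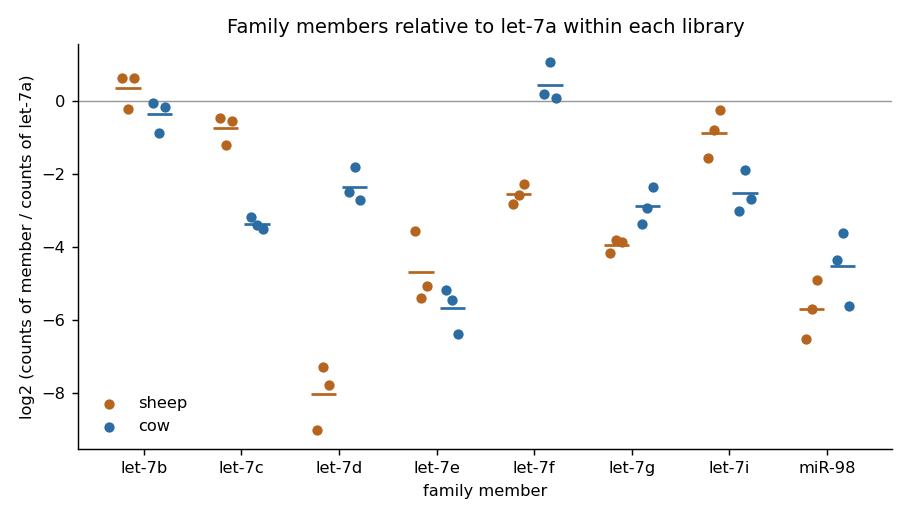
Each point is 1 library and gives the log2 ratio of a member's counts to the let-7a counts of that library, with sheep left of cow for each member and a line at the mean of 3 libraries. let-7c and let-7i lie higher in sheep without overlap, let-7d, let-7f and let-7g lie lower without overlap, and let-7b, let-7e and miR-98 overlap.

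Members known in mammals from shared primary transcripts did not keep 1 ratio in the 2 species. let-7f had 73.7, 26.3 and 46.4 counts per let-7d count in sheep, against 6.53, 7.31 and 7.03 in cow, where the 3 libraries were close. let-7f had 12.9, 8.80 and 6.22 counts per miR-98 count in sheep, against 23.7, 25.5 and 52.3 in cow. Neither ratio overlapped between species (exact permutation p = 0.1 each). let-7a and let-7f have several gene copies in mammals, and mature reads do not tell copies apart. In the RefSeq gene table of the sheep assembly ARS-UI_Ramb_v3.0, let-7a and let-7d genes lie within 10000 bases of each other, and so do let-7c and miR-99a. Its let-7f gene, on chromosome X, has no other miRNA gene within that distance, so the table does not place let-7f beside let-7d or miR-98. The table has genes under the names of 7 members, without let-7e and miR-98, which were likewise unnamed among the sheep rows.

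As levels, in CPM of all miRNA counts, the order of members in sheep ran from let-7b (46635 ± 17648) over let-7a (34678 ± 3766), let-7c (21440 ± 7160), let-7i (20595 ± 10650), let-7f (5999 ± 1698), let-7g (2256 ± 346), let-7e (1602 ± 1188) and miR-98 (748 ± 471) to let-7d (144 ± 68.4) (SD, n = 3). Of the 8 steps in this order, 4 had overlapping ranges: let-7b to let-7a, let-7c to let-7i, let-7g to let-7e, and let-7e to miR-98. In cow the order was let-7f (9074 ± 4982), let-7a (6107 ± 954), let-7b (4763 ± 932), let-7d (1289 ± 648), let-7i (1158 ± 664), let-7g (843 ± 231), let-7c (594 ± 124), miR-98 (326 ± 238) and let-7e (129 ± 57.9). There only the step from let-7b to let-7d had ranges apart. On this scale 6 members lay higher in sheep without overlap and let-7d lay lower, beside 33.3% of the joined miRNAs that lay higher and 22.2% that lay lower. let-7b was among the 5 most abundant rows of each sheep library and ranked 17 to 20 in the cow libraries. let-7f ranked 14 to 26 in sheep and 8 to 14 in cow. let-7d ranked 96 to 229 in sheep and 33 to 52 in cow. Ranks come from tables of different length and show no change by themselves.

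**Figure D3:**
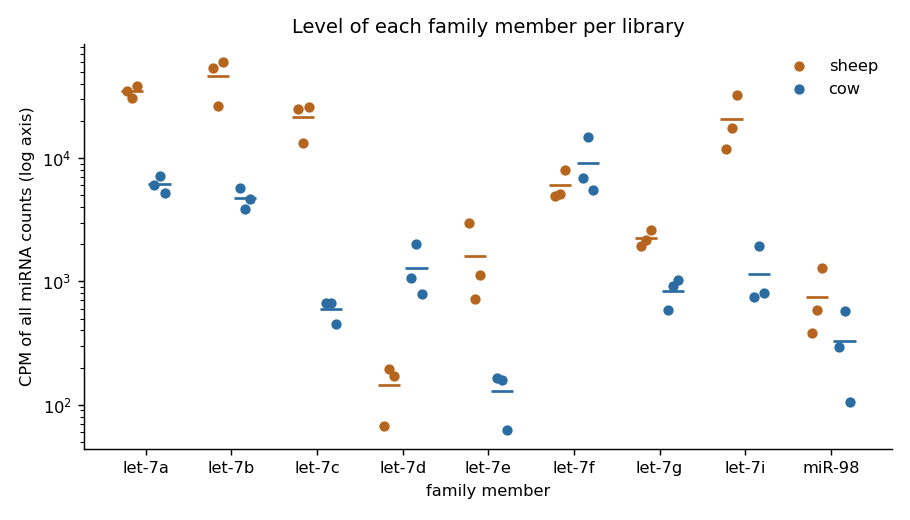
Points give the CPM of all miRNA counts of each member per library on a log axis, sheep left of cow, with a line at the mean of 3 libraries. let-7d is the only member whose sheep points all lie below its cow points; let-7f and miR-98 overlap, and the other 6 lie higher in sheep.

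The difference between species was also tested per miRNA on the counts of all joined miRNAs with edgeR's quasi-likelihood test, TMM normalization factors and Benjamini-Hochberg adjustment. Of 54 joined miRNAs, 47 passed the filter on low counts, among them all 9 members. With an adjusted p threshold of 0.05, 7 of the 9 members were called, 5 higher in sheep (let-7a, let-7b, let-7c, let-7e and let-7i) and 2 lower (let-7d and let-7f). Over all 47 miRNAs tested, 53.2% were called, 23.4% as higher in sheep and 29.8% as lower. The median log2 fold change of sheep over cow was 1.73 over the members and 0.18 over all miRNAs tested.

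let-7c had 27857, 27421 and 27973 counts in sheep replicates 1, 2 and 3, against 218, 372 and 175 in cow replicates 1, 2 and 3. Its log2 fold change was 4.39 ± 0.59 (SE, edgeR adjusted p = 3.18e-08). let-7i had 13120, 36439 and 34839 counts in sheep and 244, 1071 and 313 in cow, a log2 fold change of 3.35 ± 0.61 (edgeR adjusted p = 6.78e-06). These 2 members stayed past the threshold and higher in sheep in each of 20 other settings. let-7d had 74, 406 and 184 counts in sheep and 348, 1124 and 305 in the shallower cow libraries, and fell in sheep, with a log2 fold change of -3.86 ± 0.80 (edgeR adjusted p = 5.25e-05). Its call was lost only with limma on log2(TPM + 1), at -1.49, and on log2(TPM + 10), at -1.07.

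let-7b had 59589, 55206 and 64106 counts in sheep and 1885, 2160 and 1811 in cow. Its log2 fold change was 2.52 ± 0.58 (edgeR adjusted p = 0.000251), and the call was lost without normalization factors (1.11). let-7e had 3280, 1496 and 1218 counts in sheep and 54, 89 and 24 in cow, with 2.79 ± 0.83 (edgeR adjusted p = 0.00371), also lost without normalization factors (1.79). let-7a had 38890, 63928 and 41091 counts in sheep and 1978, 3952 and 2016 in cow, with 1.73 ± 0.56 (edgeR adjusted p = 0.00676). Its call was lost without normalization factors (0.35), without sheep replicate 2 (1.45), without sheep replicate 3 (1.51) and without cow replicate 1 (1.51).

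let-7f had 5453, 10669 and 8543 counts in sheep and 2273, 8220 and 2145 in cow. It was lower in sheep by the TMM fit, at -1.40 ± 0.55 (edgeR adjusted p = 0.0282), but this call held in only 6 of 20 other settings. It was lost without sheep replicate 1 (-0.28), sheep replicate 3 (-1.82) or cow replicate 2 (-0.50), and the sign turned with limma on log2(TPM + 1), at 1.12. let-7g had 2169, 4534 and 2828 counts in sheep and 191, 515 and 396 in cow and did not pass, with 0.58 ± 0.61 (edgeR adjusted p = 0.439). miR-98 had 424, 1213 and 1374 counts in sheep and 96, 322 and 41 in cow and did not pass, with 0.47 ± 0.85 (edgeR adjusted p = 0.666). Without sheep replicate 1 both passed as higher in sheep, let-7g at 1.64 and miR-98 at 1.69, while without sheep replicate 3 miR-98 was at -0.31.

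Scaling set the level of all these fold changes together. The median over miRNAs of the shift in log2 fold change from the TMM fit was -1.29 without normalization factors, 0.38 with RLE factors and 2.32 with limma on log2(TPM + 1), a fit with another test and no filter. Without normalization factors, 4 members were called, let-7c and let-7i higher in sheep and let-7d and let-7f lower, beside 12.8% of the miRNAs tested called higher and 36.2% called lower. With limma on log2(TPM + 1), 7 members were called, all higher in sheep, beside 48.1% of the miRNAs tested called higher and 11.1% called lower. In each of the 4 fits plotted, let-7c had the highest and let-7d the lowest fold change of the family.

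**Figure D4:**
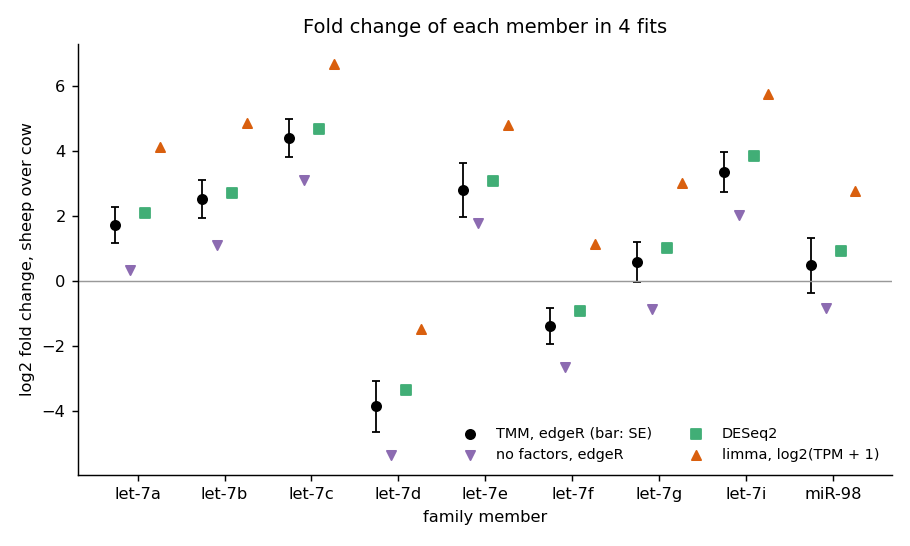
The log2 fold change of sheep over cow is plotted for each member in 4 fits: edgeR with TMM factors (with the SE as a bar), edgeR without factors, DESeq2, and limma on log2(TPM + 1). In each fit let-7c is highest and let-7d lowest, while let-7f, let-7g and miR-98 lie on both sides of 0 depending on the fit.

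The miRNAs known in mammals to be made from primary transcripts shared with let-7 genes are miR-99a, miR-99b, miR-100, miR-125a and miR-125b. Of these 5, 2 had a miRBase name in both tables and were tested in the same fit; 1 was lower in sheep and none was higher. miR-99a had 1402, 900 and 831 counts in sheep and 2022, 2743 and 1433 in cow, with a log2 fold change of -3.39 ± 0.57 (edgeR adjusted p = 1.47e-06). Its call was lost with limma on log2(TPM + 1), at -1.05, and on log2(TPM + 10), at -0.96. miR-125b had 6348, 5235 and 5411 counts in sheep and 562, 811 and 507 in cow and did not pass, with 0.76 ± 0.54 (edgeR adjusted p = 0.224). It passed as higher in sheep in 5 of 20 other settings, among them without sheep replicate 1 (1.39). let-7c thus stood at 19.9, 30.5 and 33.7 counts per miR-99a count in sheep and at 0.108, 0.136 and 0.122 in cow, although their genes are neighbours in the sheep table. A sheep row without a miRBase name lists a sequence that differs from the 20 listed bases of miR-99a at 1 position, and had 30732, 37182 and 34060 counts. Whether that row is another of these partners, such as miR-100, was not tested, nor was how reads were split between it and miR-99a. miR-99b, miR-100 and miR-125a had 738, 435 and 1928 counts in cow replicate 1 and were not compared, having no sheep row with a miRBase name.

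Both members that the sheep table leaves unnamed are listed in a longer and a shorter form, and the forms were spread unevenly over the sheep libraries. The 21-base form of let-7e made up 2.10% (95% Wilson interval 1.67 to 2.65) of the counts of both forms in sheep replicate 1, 29.8% (27.5 to 32.2) in replicate 2 and 2.79% (2.00 to 3.88) in replicate 3. Replicate 2 held 446 counts of the short form beside 1050 of the long one, and the others held 69 beside 3211 and 34 beside 1184. The 18-base form of miR-98 made up 5.42% (3.64 to 8.01) in sheep replicate 1, on 23 counts. It had 1 count in replicate 2 and 0 of 1374 in replicate 3. There the floor of 3 counts allows a share of up to 0.218%, and the 95% Wilson interval reaches 0.279%. So a different library stood out for each member, and both values rest on rows that the authors' processing kept apart.

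**Figure D5:**
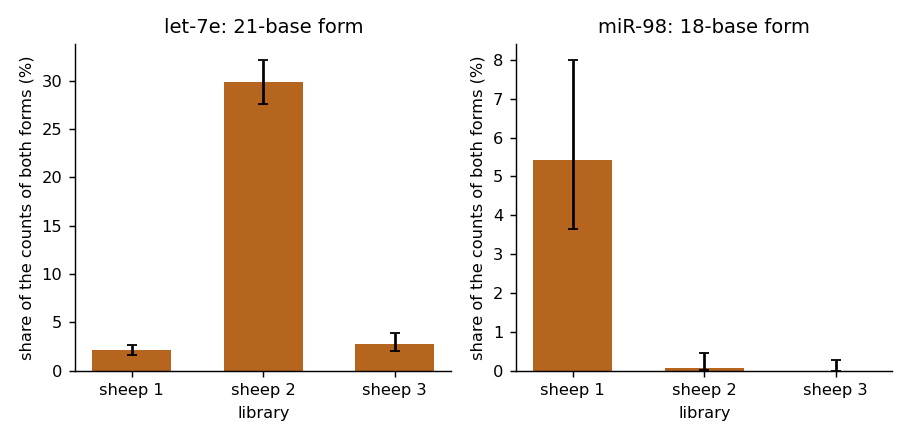
Bars give the share (%) of the counts of both listed forms that fell in the shorter form, for let-7e (left) and miR-98 (right), in each sheep library, with 95% Wilson intervals. The let-7e form is high in sheep replicate 2 at 29.8%, and the miR-98 form in sheep replicate 1 at 5.42%.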

How the data were processed

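The authors deposited whole-number read counts per miRNA row and TPM values, in separate tables for sheep and cow with a column for each library. cutadapt 1.14 and Bowtie are named per the submitters' processing notes; genome build, miRBase release and counter: not given in the sources used here. Per the labels' protocols, EVs were precipitated with a commercial kit and libraries made with an adapter-ligation kit with PCR, which favours some miRNAs, so counts do not give the shares of molecules. The deposited TPM is the count over 1 constant per library, between 9859791 and 16091056.

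Rows were joined by name without prefix and -5p suffix, and rows of 1 member summed. The 54 joined miRNAs were tested on counts in edgeR 4.0.16 (quasi-likelihood test, TMM, library size equal to the joined total, default filterByExpr, Benjamini-Hochberg, threshold 0.05). SE is the fold change over the root of its F statistic. Shares were compared by exact two-sided permutation tests. Alternatives used DESeq2 1.42.0 and limma 3.58.1 on log2(TPM + 1) and log2(TPM + 10). The fits were also run on simulated counts with as many changes up as down, which was not a test of how scaling affects these data. All 9 members and 5 cluster partners are named; members and lists were chosen with earlier results of these data known.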

Additional observations from a re-analysis of the deposited data

Results flagged for a closer look

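Reads were also present in rows outside the comparisons, above the 3 counts that a count of 0 allows. The passenger strand (the strand usually degraded) paired by the sheep table with the longer let-7e row had 11, 6 and 3 counts in sheep replicates 1, 2 and 3, 20 in all. This was 0.341%, 0.568% and 0.253% of the counts of both strands, and the 95% Wilson intervals overlapped. The passenger strand paired with miR-98 had 2, 0 and 1 counts, which is not above that limit.

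A sheep row of 21 bases holds the let-7 seed letters at positions 3 to 9 instead of 2 to 8, and so was no member: cgGAGGTAGagggaacgggct, where capitals mark those letters. It had 284 counts, all in sheep replicate 1, and 0 in replicates 2 and 3.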

How the results depend on the processing

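The number of members past the threshold was 7 in the TMM fit and 4 (2 higher and 2 lower in sheep) without normalization factors; it stayed within 1.5 times of 7 in the other 19 settings, and ran from 5 to 8 with 1 library left out. Members split 5 higher and 1 lower with RLE factors (all miRNAs tested 13 and 12), upper-quartile factors (12 and 12) and DESeq2 (16 and 13), and 7 and 0 with limma on log2(TPM + 1) (26 and 6) or log2(TPM + 10) (22 and 6), against 5 and 2 with TMM (11 and 14). Called cluster partners numbered 1, but 2 with DESeq2 and with whole-table library sizes without factors (a setting added after the data were seen), 0 where the arm suffix was kept, as miR-99a was not joined there, and 1 to 2 with 1 library left out. In both limma fits the partner called was miR-125b, higher in sheep (3.09 and 2.87), and miR-99a was not called. Signs turned for let-7f with limma on log2(TPM + 1) (1.12) and log2(TPM + 10) (1.09), for let-7g (-0.87), miR-98 (-0.83) and miR-125b (-0.53) without normalization factors, for miR-98 without sheep replicate 3 (-0.31, highest value with 1 library left out 1.69), and for the let-7a share without sheep replicate 2 (-1.57) or cow replicate 2 (-0.825, highest 3.03); the cause was not tested. Non-overlapping within-family shares numbered 6 to 7 of 9 with 1 library left out. They numbered 6 of 8 without let-7a and 6 of 7 with miRBase names only. They stayed at 6 of 9 without the row given to no member, whose 3, 4 and 7 counts could hardly change a share. Whether the number holds without let-7f was not tested. The family's share of all counts differed by 9.21 to 12.8 percentage points with 1 library left out, that of joined counts by 1.04 to 11.2. Without the largest row of each library these differences were 17.6 and 39.8 points, and with the constant behind the deposited TPM as denominator the first was 1.24, against 10.98 and 5.42 as reported. That constant is far larger than the miRNA counts of a library, so points are not comparable between the denominators. With it the means were 1.32% in sheep and 0.0851% in cow, a ratio of 15.5, against a ratio of 5.52 with all miRNA counts. The replicate numbers name libraries of 2 species, and deviations of same-numbered libraries correlated at -0.0977, 0.147 and 0.0811. With 3 libraries per species, these values cannot tell whether same-numbered libraries shared any handling. With the replicate block 6 members were called, 5 higher and 1 lower, let-7f (-1.23) no longer. The depth of cow limits let-7e, with as few as 24 counts.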
